A study of Mus musculus with 6 samples.

Results

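Metallothioneins are small, cysteine-rich proteins that bind zinc and copper, and 3 of their genes, Mt1, Mt2 and Mt3, were followed here in sorted mouse cortical progenitors and neurons. The 3 genes, of 19938 measured, were chosen by their rise in log2 intensity in the GFP+ progenitor arrays over the RFP+ neuron arrays, so their difference between the groups is given as a description with no test. Each gene is represented by 1 probe set annotated to that symbol alone (10574027 for Mt1, 10574023 for Mt2 and 10574018 for Mt3). Mt4, the fourth gene of the mouse cluster on chromosome 8, was also measured (probe set 10574013) and is given beside them.

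The sulphur atoms of a metallothionein's cysteines hold metal ions and can release them again, which buffers free zinc and copper and takes up reactive oxygen species. Transcription of Mt1 and Mt2 is known to be switched on by zinc through the metal-sensing factor Mtf1, which binds short promoter sequences called metal response elements, and also by glucocorticoids, by cytokines acting through Stat3 and by oxidative stress. In the adult brain Mt1 and Mt2 are known chiefly from glial cells, ependyma and blood vessels. Mt3 was first isolated as a growth inhibitory factor of the brain, and Mt4 is known from stratified squamous epithelium.

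One population carried a green reporter (GFP+) and are labelled as cortical neural progenitors. The other carried a red reporter (RFP+) and are labelled as neuronal progeny at a differentiated stage. Each group had 3 arrays of total RNA from cells of C57BL/6J mouse brain sorted by fluorescence, and the comparison asks how the progenitors differ from their progeny. The tissue label of both groups is brain, and the cortex is named for the GFP+ cells and not for the RFP+ cells. The promoters that drive the reporters, the age of the animals and whether replicates came from separate animals are not given in the sources used here, so the p-values speak only of the spread among these 6 samples. By limma's adjusted p under 0.05 all 10 neuronal markers were lower in the GFP+ arrays, against 16.2% of all genes. Of 15 radial glia and astrocyte markers 13 were higher, against 13.8% of all genes, and the 2 that did not pass were Gfap and Slc1a2. In these bulk samples fewer cells of a type and less RNA per cell cannot be told apart.

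Array medians lay between 210.31 and 221.1 intensity units. The olfactory receptor genes, 1015 in number and not known for a role in cortex, were used to gauge background, and a value under their 95th percentile (201.51 to 224.13 per array) is called at background below. The arrays numbered 1 stood apart in 2 immediate-early genes, Fos and Egr1, while Jun and Junb did not show this. Fos had an intensity of 1310 on GFP+ array 1 against 113 and 114 on the other GFP+ arrays, and 999 on RFP+ array 1 against 91.4 and 106 on the other RFP+ arrays. Egr1 had 2616 on GFP+ array 1 (178 and 121 on the others) and 1673 on RFP+ array 1 (26.4 and 32.8 on the others). GFP+ array 1 was also low in endothelial markers, and each metallothionein difference is therefore given with and without these arrays.

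Stretches before the annotated starts of the family are shown. Transcription of Mt1 and Mt2 is known to depend on metal response elements near the start site. Each line holds the 250 bases before the start site in the RefSeq table (build GRCm38.p6), and capitals mark matches to the metal response element core, TGCACNC or TGCGCNC on either strand.
Mt1, chr8:94178839-94179088, plus strand: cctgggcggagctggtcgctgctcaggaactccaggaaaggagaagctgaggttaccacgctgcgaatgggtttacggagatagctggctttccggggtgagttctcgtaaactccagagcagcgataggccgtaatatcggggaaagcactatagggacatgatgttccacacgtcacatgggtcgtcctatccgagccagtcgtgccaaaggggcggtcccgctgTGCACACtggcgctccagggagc
Mt2, chr8:94172368-94172617, plus strand: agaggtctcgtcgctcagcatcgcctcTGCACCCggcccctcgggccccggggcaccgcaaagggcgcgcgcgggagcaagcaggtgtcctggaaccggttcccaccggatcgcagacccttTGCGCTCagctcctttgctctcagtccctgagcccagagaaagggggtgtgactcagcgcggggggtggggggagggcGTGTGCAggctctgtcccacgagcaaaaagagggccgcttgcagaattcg
Mt3, chr8:94152357-94152606, plus strand: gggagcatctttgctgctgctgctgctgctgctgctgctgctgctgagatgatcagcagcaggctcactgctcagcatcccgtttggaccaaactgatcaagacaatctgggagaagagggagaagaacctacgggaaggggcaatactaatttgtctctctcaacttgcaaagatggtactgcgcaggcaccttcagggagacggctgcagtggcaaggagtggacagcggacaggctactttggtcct
Mt4, chr8:94136954-94137203, plus strand: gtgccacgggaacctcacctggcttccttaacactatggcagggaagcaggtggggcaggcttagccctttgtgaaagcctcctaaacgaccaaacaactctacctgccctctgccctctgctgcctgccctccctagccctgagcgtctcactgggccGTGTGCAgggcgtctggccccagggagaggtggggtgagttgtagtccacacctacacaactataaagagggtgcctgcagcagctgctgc

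The core was searched from 250 bases before to 50 bases after each RefSeq start, and all positions and counts depend on that start. Mt2 had 4 matches. TGCACCC began 223 bases before the start, TGCGCTC 128 bases before it, and TGCACAC 50 bases before it on the minus strand. TGCGCAC, also on the minus strand, began at base 5 after the start. Mt1 had 3 matches, of which TGCACAC lay 23 bases before the start and is shown in capitals. TGCACTC and TGCGCTC began at bases 3 and 21 after the start. Mt3 had 1 match, TGCACAC at base 28 after the start, so its printed sequence holds no capitals. Mt4 had 1 match, TGCACAC on the minus strand 91 bases before the start. Of 32841 mouse windows of this length 25.7% held at least 1 core and 1.97% held 3 or more, as those of Mt1 and Mt2 did. G and C made up 60.7% of the Mt1 window, 67.7% of Mt2, 56% of Mt3 and 60.3% of Mt4. The 32841 windows were not matched for this.

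The same windows were searched for other motifs. The antioxidant response element core, TGACNNNGC, was found once in the 4 windows, as TGACTCAGC 79 bases before the Mt2 start, and 12.4% of all windows held it. The STAT core TTCNNNGAA (8.3% of windows) and the E-box CACGTG (7.15%) were in none of the 4 windows. No match overlapped another. A match is a run of letters and does not show that a factor binds there, and stretches outside these windows were not searched. Whether transcription in these cells begins at the RefSeq starts was not tested, so a window may miss part of a promoter.

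**Figure D1:**
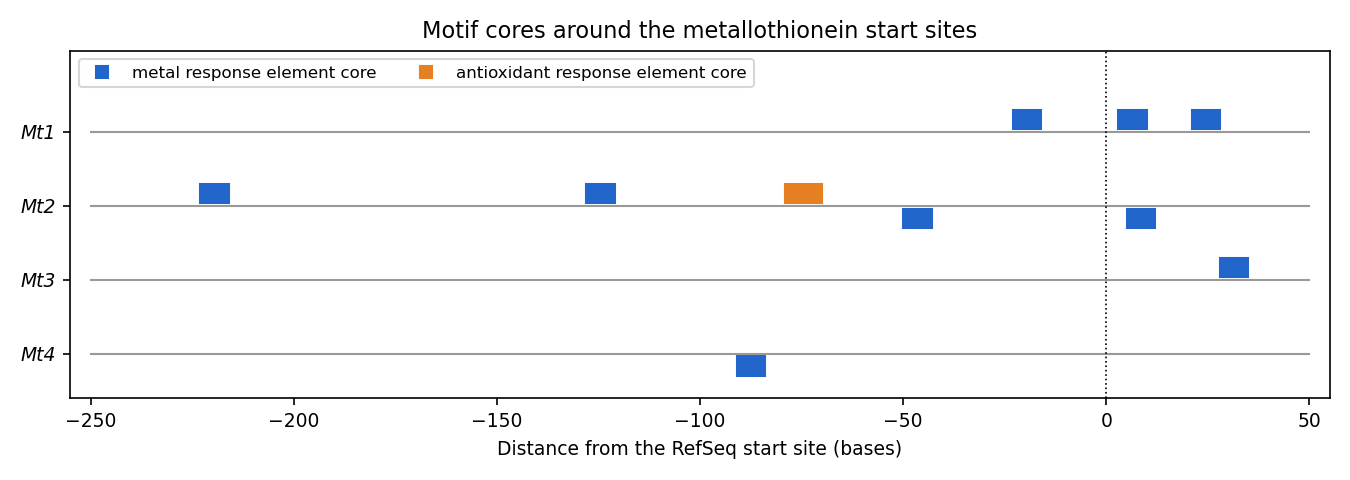
Positions of motif matches from 250 bases before to 50 bases after the RefSeq start site (x axis, bases; dotted line, start) of the 4 metallothionein genes. Boxes above a line lie on the plus strand and boxes below it on the minus strand; Mt2 has 4 metal response element cores, Mt1 has 3, and Mt3 and Mt4 have 1 each.

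Mt1 and Mt2, the widely expressed pair known to respond to zinc, were far brighter in the progenitor arrays. Mt1 had intensities of 2202, 3177 and 1513 in the GFP+ arrays and 327, 411 and 203 in the RFP+ arrays. All 3 RFP+ values of Mt1 lay above the olfactory 95th percentile, that on RFP+ array 3 only just (202.59 against 201.51). The groups did not overlap, and the dimmest GFP+ array was 3.58-fold above the brightest RFP+ array. The log2 difference of Mt1 was 2.80 ± 0.27 (SE, n = 3 arrays each), a 6.97-fold difference on the log2(intensity + 16) scale used for every fold below. With an offset of 16 a fold understates the change of dim genes.

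Mt2 had intensities of 1666, 1406 and 848 in the GFP+ arrays and 64.9, 112 and 51.8 in the RFP+ arrays. All 3 RFP+ values lay under the olfactory 95th percentile, so Mt2 was at background in the neurons while all 3 progenitor values lay above that percentile. On RFP+ arrays 1 and 3 Mt2 lay under the olfactory medians (66.84 and 63.44), and on RFP+ array 2 above the median of 63.02. The log2 difference was 3.84 ± 0.26 (SE, n = 3 each), a fitted 14.3-fold difference. Set against the olfactory 95th percentile in place of the dimmer RFP+ values, Mt2 was at least 5.63-fold higher in the GFP+ arrays.

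Mt3, the brain form, had intensities of 4357, 2341 and 1906 in the GFP+ arrays and 271, 316 and 253 in the RFP+ arrays. Its groups did not overlap either, and all 3 RFP+ values lay above the olfactory 95th percentile, so its neuronal level was low but above background. The log2 difference was 3.2 ± 0.26 (SE, n = 3 each), a 9.18-fold difference. By the size of the difference Mt2 ranked 4, Mt3 ranked 39 and Mt1 ranked 95 among all 19938 genes.

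Mt4 had no such separation of the groups. Its intensities were 3998, 2509 and 2724 in the GFP+ arrays and 2693, 2477 and 3326 in the RFP+ arrays, and the groups overlapped. The log2 difference was 0.10 ± 0.22 (SE, n = 3 each, limma adjusted p = 0.765), a 1.07-fold difference. How far its probe set reports Mt4 RNA in these cells was not tested. For the 3 chosen genes the GFP+ arrays lay above the RFP+ arrays without overlap in 3 of 3, which the choice fixed, and the same held for 19.9% of all genes (the reverse held for 24.1%).

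**Figure D2:**
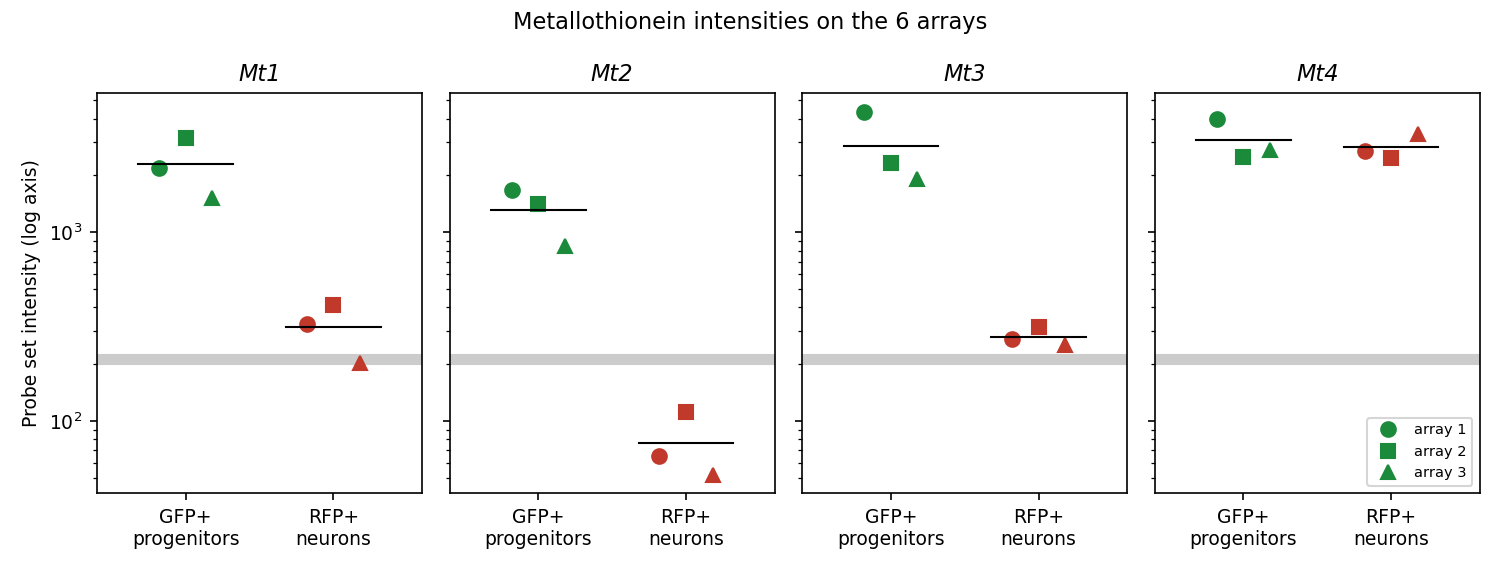
Probe set intensity (y axis, log scale) of the 4 metallothionein genes on each GFP+ progenitor and RFP+ neuron array; symbols mark the replicate number, black lines the group means, and the grey band the olfactory receptor 95th percentiles of 201.51 to 224.13. Mt1, Mt2 and Mt3 lie higher on all GFP+ arrays, Mt2 lies under the band on the RFP+ arrays, and Mt4 overlaps between the groups.

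The 3 genes varied among themselves within a group. In the progenitors GFP+ array 3 was the dimmest for all 3 genes, at -0.53 (Mt1), -0.56 (Mt2) and -0.49 (Mt3) from the group mean on the log2 scale. Mt2 and Mt3 were brightest on GFP+ array 1 (0.40 and 0.69), whereas Mt1 was brightest on GFP+ array 2 (0.53). The brightest GFP+ array was 2.09-fold above the dimmest for Mt1, 1.95-fold for Mt2 and 2.27-fold for Mt3.

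In the neurons all 3 genes were brightest on RFP+ array 2, at 0.43 (Mt1), 0.53 (Mt2) and 0.17 (Mt3), and dimmest on RFP+ array 3. The spread of Mt3 was smaller there, with 1.23-fold between the brightest and the dimmest array, against 1.95-fold for Mt1 and 1.89-fold for Mt2. Compared by number, the arrays gave log2 differences of 2.69, 2.90 and 2.81 for Mt1, of 4.38, 3.47 and 3.67 for Mt2, and of 3.93, 2.83 and 2.83 for Mt3. Without both arrays numbered 1 the differences were 2.85 for Mt1, 3.57 for Mt2 and 2.83 for Mt3, so all 3 genes remained higher in the progenitors there.

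Markers of blood vessel cells were also higher in the progenitor arrays. For the counts below, 13.8% of all genes were higher in the GFP+ arrays and 16.2% lower (limma adjusted p under 0.05). All 10 endothelial markers were higher there, with summed intensities of 2181 to 7074 in the GFP+ arrays and 688 to 993 in the RFP+ arrays, and none of them lay under the olfactory 95th percentile on every array. Of 10 pericyte and mural markers 8 were higher (sums of 6777 to 8460 in GFP+ and 1324 to 1471 in RFP+). Acta2 and Tagln did not pass. Tagln was at background on every array, and Acta2 was above it on all 6. Of 10 meningeal fibroblast markers 6 were higher (sums of 2379 to 2602 in GFP+ and 701 to 832 in RFP+). Dcn, Lum, Foxd1 and Aldh1a2 were at background on every array, and Foxd1 was still among those called (adjusted p = 2.77e-05). Col1a1, above background on all 6 arrays, did not pass (adjusted p = 0.435), nor did Dcn, Lum and Aldh1a2. Of 9 measured oligodendrocyte lineage markers 6 were higher (sums of 1932 to 2941 in GFP+ and 792 to 1079 in RFP+). The myelin genes Mbp, Mog and Mag did not pass, and Mag was at background on every array. Among the 6, Cspg4 is also counted in the pericyte and mural list and Pdgfra in the meningeal fibroblast list. Of 10 microglial markers 0 passed the limma test in either direction (0 at an unadjusted p under 0.05), with sums of 1248 to 1978 in GFP+ and 1624 to 1947 in RFP+. Aif1, P2ry12 and Fcrls were at background on every array, and Cx3cr1, Tmem119 and Itgam were above it on 1 array each.

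The marker lists and the metallothioneins were set side by side across the progenitor arrays. With 3 arrays per group a shared order carries little weight. The oligodendrocyte lineage markers had median deviations of 0.00, 0.20 and -0.28 on GFP+ arrays 1, 2 and 3, the order of Mt1. The microglial markers had 0.33, -0.05 and -0.21, the order of Mt2 and Mt3. On RFP+ arrays 1, 2 and 3 the oligodendrocyte lineage markers had 0.04, -0.01 and 0.01 and the microglial markers -0.14, 0.11 and 0.07. Neither was the order of a metallothionein there. For the endothelial markers the median deviation was -0.91 on GFP+ array 1, where Mt2 and Mt3 were brightest, and 0.70 on GFP+ array 3, where all 3 metallothioneins were dimmest. Without GFP+ array 1 the log2 differences were 2.80 for Mt1, 3.64 for Mt2 and 2.85 for Mt3. The pericyte and mural markers (-0.17 to 0.10) and the radial glia and astrocyte markers (-0.04 to 0.06) were nearly level across the GFP+ arrays. The small deviations of the radial glia and astrocyte markers (-0.01, 0.06 and -0.04) also had the order of Mt1. The summed radial glia and astrocyte level was 51397 to 53124 in the GFP+ arrays and 10766 to 11459 in the RFP+ arrays, with Aqp4 at background throughout. The part of these cells in the metallothionein levels was not tested.

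**Figure D3:**
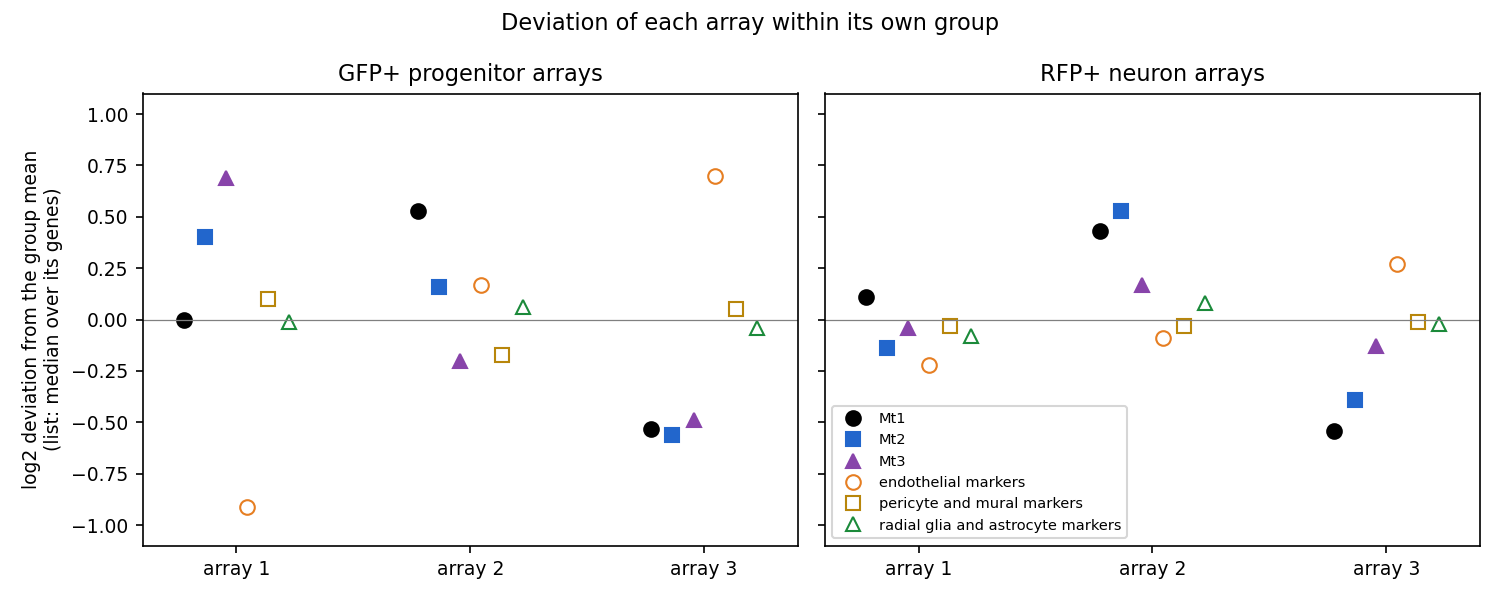
Deviation of each array from the mean of its own group (y axis, log2) for Mt1, Mt2 and Mt3 and for the median of 3 marker lists, with GFP+ progenitor arrays on the left and RFP+ neuron arrays on the right. On GFP+ array 3 the metallothioneins lie at -0.56 to -0.49 and the endothelial markers at 0.70, and on GFP+ array 1 the endothelial markers lie at -0.91.

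Zinc transporter genes gave 2 calls in each direction. Of 24 genes of the export (Slc30) and import (Slc39) families 2 were higher in the GFP+ arrays, 2 were lower and 20 did not pass limma's test (adjusted p under 0.05), with a median log2 difference of 0.01. Of all genes 13.8% were higher and 16.2% lower, with a median of -0.08, so the list's shares of 8.33% each lay below both backgrounds. With the replicate number as a block 4 were higher and 3 lower, against 16.7% and 20.3% of all genes, and without both arrays numbered 1 limma's counts were 2 and 0 (3 lower at an unadjusted p under 0.05), against 10% and 9.27%.

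Slc39a8, which imports zinc and manganese, had intensities of 212, 318 and 381 in the GFP+ arrays and 91.6, 100.03 and 92.9 in the RFP+ arrays, without overlap. All 3 RFP+ values and GFP+ array 1 were at background, so the gene was at least 1.37-fold higher (fitted log2 difference 1.49 ± 0.22, adjusted p = 2.72e-05). Such bounds set the olfactory 95th percentile in place of the values of a group whose 3 arrays were all at background. Values of the other group stayed as measured, also where 1 of its arrays was at background. Slc39a1, an importer of the plasma membrane, was 1.88-fold higher (adjusted p = 0.00271). Slc30a4 and Slc39a3 were lower in the GFP+ arrays, with log2 differences of -0.76 and -0.61. The call of Slc30a4 ended without GFP+ array 1 (adjusted p = 0.0667) or both arrays numbered 1 (0.151), and that of Slc39a3 ended without any 1 of GFP+ array 3 or the RFP+ arrays (adjusted p 0.0544 to 0.0765) or without both arrays numbered 1 (0.109). Slc30a1, the exporter known as a target of Mtf1 beside Mt1 and Mt2, had intensities of 646, 886 and 889 in the GFP+ arrays and 657, 533 and 562 in the RFP+ arrays. These overlapped (log2 difference 0.45 ± 0.21, adjusted p = 0.115). Slc30a1 lies outside the rule for named genes and was chosen after its values were seen.

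Copper and iron genes were mixed. Of 13 measured copper handling genes 2 were higher in the GFP+ arrays (15.4%, against 13.8% of all genes) and 1 lower (7.69%, against 16.2%), with a median log2 difference of 0.27. With the replicate block 4 were higher and 1 lower, against 16.7% and 20.3% of all genes. Commd1, which takes part in copper export, was 1.64-fold higher (adjusted p = 0.0295), and Ccs, the copper chaperone of superoxide dismutase, 1.47-fold higher (adjusted p = 0.0481). The call of Commd1 ended without any 1 of GFP+ arrays 2 and 3 and RFP+ arrays 1 and 3 (adjusted p up to 0.139) and with an offset of 1 (0.0656). That of Ccs ended without any 1 array except GFP+ array 3, without both arrays numbered 1, with an offset of 1 and with quantile normalization or median centring (adjusted p 0.0539 to 0.338). Atp7b, a copper-exporting ATPase, was lower, at 123, 122 and 96.8 in the GFP+ arrays against 233, 256 and 242 in the RFP+ arrays (log2 difference -1.01 ± 0.20, adjusted p = 5.91e-04). Its GFP+ values were at background, and it was at least 1.12-fold higher in the RFP+ arrays. Of 13 iron handling genes 3 were higher and 0 lower in limma's test (2 lower at an unadjusted p under 0.05), with a median of 0.30, so 23.1% were higher, against 13.8% of all genes. The iron exporter gene Slc40a1 was at least 1.40-fold higher (fitted log2 difference 1.96 ± 0.31, adjusted p = 4.49e-05), with all RFP+ values and GFP+ array 1 at background. The ferric reductase gene Cybrd1 was at least 1.09-fold higher (fitted log2 difference 1.59 ± 0.23, adjusted p = 1.94e-05), with all RFP+ values and GFP+ array 3 at background. Heph, an iron oxidase gene, passed the test (log2 difference 1.13 ± 0.21, adjusted p = 3.68e-04) but was at background on every array, so no fold is given.

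Nfe2l2, Nr3c1 and Stat3, genes known to act on metallothionein transcription, were higher in the progenitors. Of 15 such genes 5 were higher (33.3%, against 13.8% of all genes) and 3 lower (20%, against 16.2%), with a median log2 difference of -0.18. Without both arrays numbered 1 limma's counts were 5 and 0 (2 lower at an unadjusted p under 0.05), against 10% and 9.27% of all genes. Mtf1, the zinc sensor, had intensities of 424, 490 and 491 in the GFP+ arrays and 320, 387 and 313 in the RFP+ arrays. The groups did not overlap, but the log2 difference of 0.45 ± 0.20 missed the threshold (adjusted p = 0.0995).

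Nfe2l2, which encodes the oxidative stress factor Nrf2, had intensities of 917, 1226 and 1036 in the GFP+ arrays and 111, 157 and 117 in the RFP+ arrays. Its RFP+ values were at background, and it was at least 4.72-fold higher (fitted log2 difference 2.90 ± 0.21, adjusted p = 4.59e-09). Nr3c1, the glucocorticoid receptor gene, had 299, 249 and 319 in the GFP+ arrays and 60.07, 72.9 and 50.9 in the RFP+ arrays, where all 3 values were at background. It was at least 1.34-fold higher (fitted log2 difference 1.98 ± 0.21, adjusted p = 2.96e-07).

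The cytokine route gave values in both directions. Stat3 had 766, 751 and 847 in the GFP+ arrays and 271, 306 and 280 in the RFP+ arrays, a 2.67-fold difference (adjusted p = 1.18e-05). Il6st, the gp130 receptor subunit, was 2.49-fold higher (adjusted p = 4.61e-05), while Lifr, its partner in the LIF receptor, was lower (log2 difference -0.74 ± 0.21, adjusted p = 0.0129). The call of Lifr ended without GFP+ array 1 (adjusted p = 0.0634) or RFP+ array 2 (0.0661) or both arrays numbered 1 (0.0701). Sp1, a general activator, was 1.75-fold higher, and Jak2 and the mineralocorticoid receptor gene Nr3c2 each had a log2 difference of -0.61, Nr3c2 being at background on every array. Socs3, a feedback target of Stat3, had a log2 difference of -0.38 ± 0.22 (adjusted p = 0.192). Il6st, Sp1, Jak2, Nr3c2 and Socs3 were named after their values were seen.

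Among glutathione and oxidative stress genes Gpx8 had the largest difference. Of 20 measured genes 6 were higher in the GFP+ arrays (30%, against 13.8% of all genes) and 0 lower in limma's test (2 lower at an unadjusted p under 0.05), with a median log2 difference of 0.47. With the replicate block 9 were higher and 1 lower, against 16.7% and 20.3% of all genes. Gpx8, a peroxidase gene of the endoplasmic reticulum, had intensities of 1718, 1704 and 1542 in the GFP+ arrays and 153, 153 and 149 in the RFP+ arrays. Its RFP+ values were at background, and it was at least 7.37-fold higher (fitted log2 difference 3.31 ± 0.20, adjusted p = 7.37e-10). The peroxiredoxin gene Prdx1 was 2.70-fold higher (adjusted p = 1.58e-05) and the glutathione transferase gene Gstm5 2.54-fold higher (adjusted p = 1.36e-04).

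Targets of the glucocorticoid receptor changed in both directions. Of 12 genes 3 were higher in the GFP+ arrays (25%, against 13.8% of all genes) and 5 lower (41.7%, against 16.2%), with a median log2 difference of -0.24. Without both arrays numbered 1 these counts were 2 and 3, against 10% and 9.27% of all genes. Sgk1, a kinase gene induced by glucocorticoids, had 132, 163 and 124 in the GFP+ arrays and 445, 378 and 254 in the RFP+ arrays (log2 difference -1.24 ± 0.23, adjusted p = 2.42e-04). Its GFP+ values were at background, and it was at least 1.58-fold higher in the RFP+ arrays. Errfi1 and the phosphatase gene Dusp1 each had a log2 difference of -0.83, and that of Dusp1 lost its call without RFP+ array 1 (adjusted p = 0.0779) or both arrays numbered 1 (0.0607). Ddit4, an inhibitor of mTOR signalling, was 1.89-fold higher in the GFP+ arrays (adjusted p = 0.00171). Angptl4, also counted among the 3 higher genes (adjusted p = 0.0341), was at background on every array and lies outside the rule for named genes.

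Heat shock and dissociation stress genes gave 1 call in each direction. Of 13 measured genes 1 was higher in the GFP+ arrays (7.69%, against 13.8% of all genes), 1 was lower (7.69%, against 16.2%) and 11 did not pass, with a median log2 difference of 0.07. With the replicate block 4 were higher and 2 lower, against 16.7% and 20.3% of all genes. The AP-1 gene Jun was 4.51-fold higher (adjusted p = 1.41e-07). Zfp36, which encodes an mRNA-destabilising protein and was at background on every array except RFP+ array 1, had a log2 difference of -0.75 ± 0.24 (adjusted p = 0.0225), a call that ended without GFP+ array 3 or RFP+ arrays 1 or 2 or both arrays numbered 1 (adjusted p up to 0.193).

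**Figure D4:**
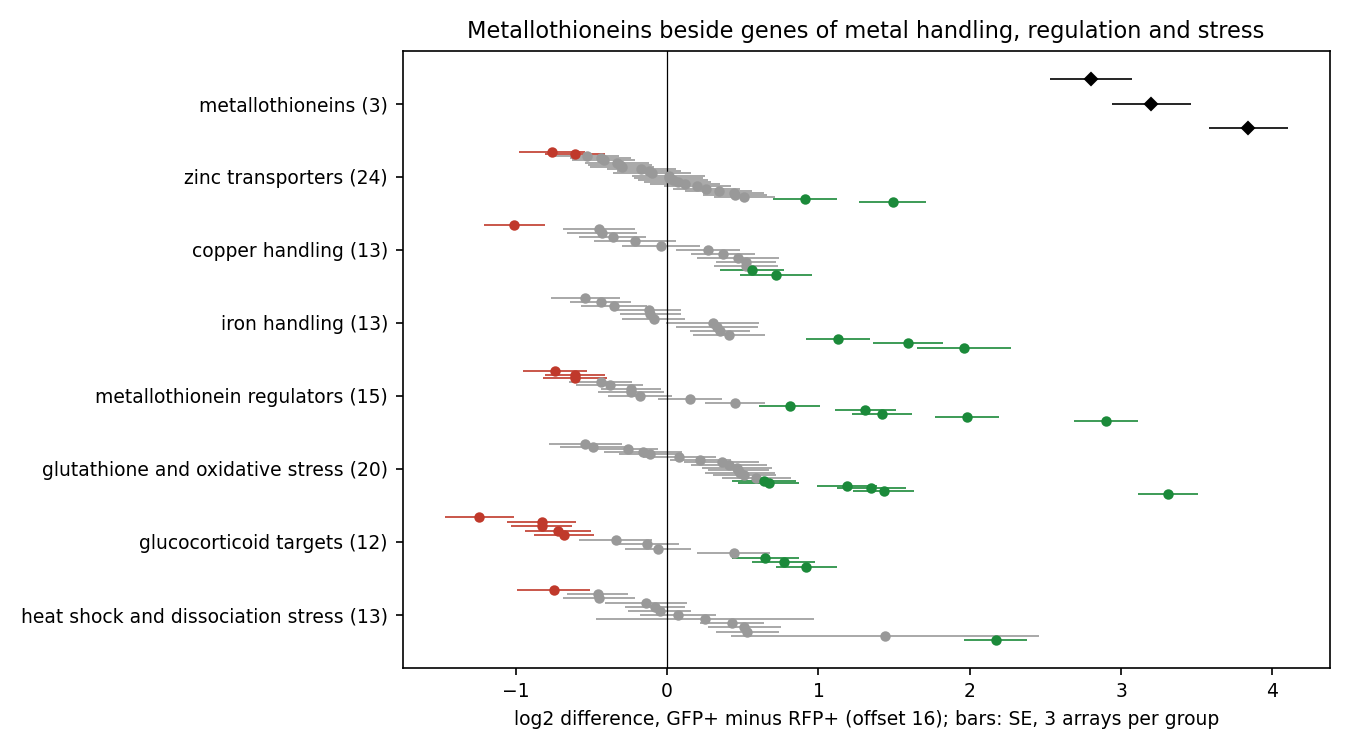
Log2 differences, GFP+ minus RFP+ (x axis; bars, SE with 3 arrays per group), of Mt1, Mt2 and Mt3 (black diamonds) and of the genes of 7 lists, with the number measured in brackets. Green points were higher and red points lower in the GFP+ arrays at an adjusted p under 0.05, and grey points did not pass; of the listed genes Gpx8 at 3.31 and Nfe2l2 at 2.90 lie nearest to the metallothioneins.

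The measured neighbours of the metallothionein cluster had log2 differences of -0.85 to 1.01. In the annotation of chromosome 8 the order is Bbs2, Mt4, Mt3, Mt2, Mt1 and Nup93, with no other protein-coding gene inside the cluster. Of the 9 neighbouring genes analysed here 3 were higher in the GFP+ arrays (33.3%, against 13.8% of all genes) and 1 lower (11.1%, against 16.2%). Nup93, a nuclear pore gene next to Mt1, had 2254, 1950 and 2040 in the GFP+ arrays and 1096, 1194 and 1315 in the RFP+ arrays, a 1.72-fold difference (adjusted p = 0.00484). Its call ended without both arrays numbered 1 (adjusted p = 0.0844), as did that of Gnao1, which encodes a G protein subunit of neurons (log2 difference -0.85 ± 0.21, adjusted p = 0.00355, and 0.0885 without those arrays). Cpne2, a copine gene, was 2.02-fold higher (adjusted p = 1.00e-03). Ogfod1, a prolyl hydroxylase gene, was 1.45-fold higher at the edge of the threshold (adjusted p = 0.0495), and its call ended without any 1 array except GFP+ array 1, without both arrays numbered 1, with an offset of 1 and with quantile normalization or median centring (adjusted p 0.0548 to 0.133). Bbs2, the neighbour of Mt4 and a gene of the ciliary BBSome, had a log2 difference of 0.25 ± 0.22 (adjusted p = 0.404). The log2 differences of Nudt21, Slc12a3, Herpud1 and Nlrc5, which also did not pass, lay between -0.31 and 0.41.

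**Figure D5:**
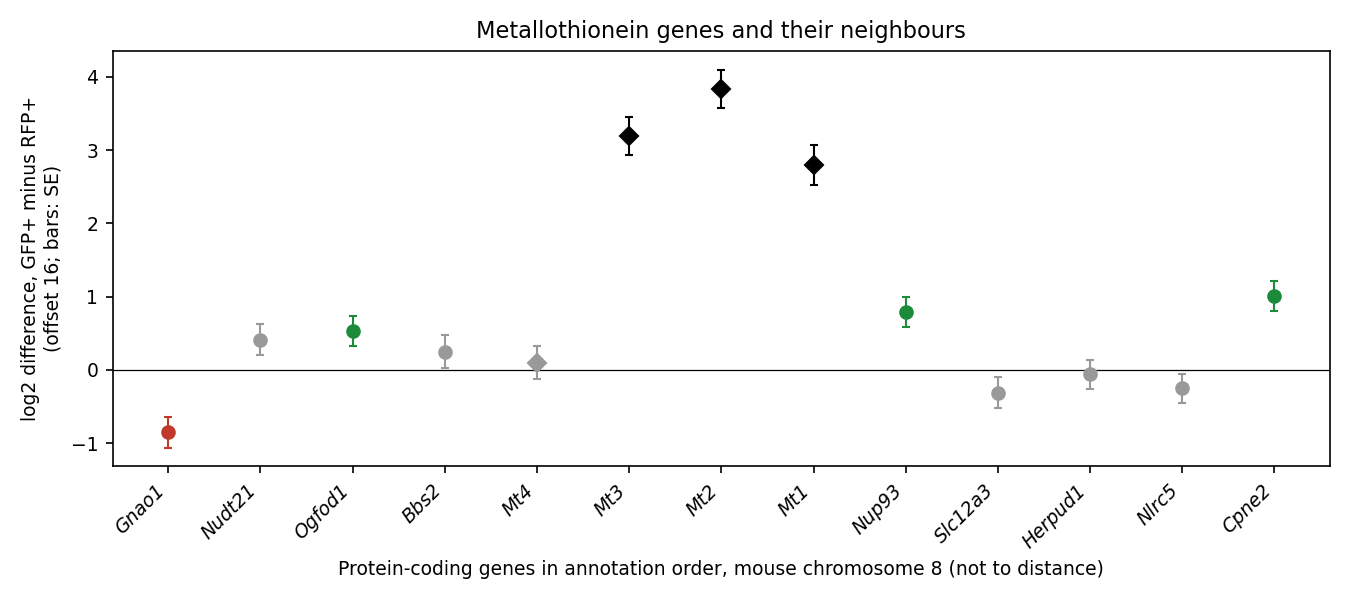
Log2 difference, GFP+ minus RFP+ (y axis; bars, SE with 3 arrays per group), of Mt4, Mt3, Mt2 and Mt1 (diamonds; black for the chosen 3) and of the measured neighbouring protein-coding genes in annotation order. The neighbours lie between -0.85 (Gnao1) and 1.01 (Cpne2), green where higher and red where lower at an adjusted p under 0.05, while Mt3, Mt2 and Mt1 lie between 2.80 and 3.84.

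Likeness to each metallothionein was measured as the root mean square distance between log2 profiles over the 6 arrays, each profile taken from its own mean, and it rests largely on the difference between the groups. The profile nearest to Mt3 was that of Ccn1, a matricellular gene known as a target of YAP (distance 0.12). Aldoc, a glycolytic enzyme gene of radial glia and astrocytes (0.261), Ndufa4l2 (0.273), the cyclin gene Ccnd1 (0.277) and Rgcc (0.297) came next. Ccn1 had intensities of 2188, 1475 and 1210 in the GFP+ arrays and 163, 182 and 135 in the RFP+ arrays, with the same order of arrays as Mt3 in each group.

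Mt2 lay nearest to Mfge8, a secreted glycoprotein gene of radial glia (0.275), Ajuba, a LIM protein gene of the Hippo pathway (0.308), Pdpn, which encodes podoplanin (0.332), Ccnd1 (0.35) and Plce1, a phospholipase gene (0.376). Mt1 lay nearest to the cell division gene Cks2 (0.202), the proneural gene Neurog1 (0.215), the myelin protein gene Pmp22 (0.232), Slc9a3r1, a membrane scaffold gene (0.235), and the BMP antagonist gene Nog (0.239). Ccnd1 was the gene shared by the lists of Mt2 and Mt3, and no gene was shared with the list of Mt1. Between members the distance was 0.417 for Mt2 and Mt3, 0.50 for Mt1 and Mt3 and 0.579 for Mt1 and Mt2. These exceed the distances above, which are the smallest picked from all genes. Other genes nearer to Mt2 than Mt3 was numbered 14, and 61 were nearer to Mt3 than Mt2 was. For Mt1 and Mt3, 187 were nearer to Mt1 and 116 to Mt3. For Mt1 and Mt2, 327 were nearer to Mt1 and 55 to Mt2. All 3 members were chosen by their rise, which fixes part of this nearness. The median distance of all other genes was 1.518 from Mt1, 2.016 from Mt2 and 1.698 from Mt3. The probe sequences were not used here, and whether RNA of one metallothionein also binds the probes of another was not tested.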

How the data were processed

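The authors deposited 1 intensity per probe set and array on a linear scale, made with the Affymetrix Expression Console per the submitters' processing notes. Its version, background correction, normalization, summary method and genome build are not given in the sources used here. Precision is limited by the number of arrays, 3 per group. Of 35557 probe sets 21789 carried 1 gene symbol, 1621 several and 12147 none here. Among probe sets of the same gene the one with the highest mean was used, giving 19938 genes.

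Values were log2(intensity + 16). All genes were fitted with limma 3.58.1 in R 4.3.3 (eBayes, two-sided) for GFP+ minus RFP+, and p-values were adjusted by Benjamini-Hochberg over the whole table, with calls under 0.05. This gave 2742 genes higher and 3236 lower in the GFP+ arrays. The fit was tested on simulated data. Figures used Python 3.11.15 and matplotlib 3.10.9.

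The members and lists were chosen with earlier results of these data known. Beside the members, the rule named Mt4, Mtf1, the 5 nearest protein-coding genes on each side, the 3 passing genes with the largest difference in the majority direction of each list and the largest the other way, and the 5 genes most alike to each member. Replicate numbers come from the sample titles. Arrays of the same number deviated together from their group means (correlations across genes of 0.204, 0.288 and 0.361, against -0.266 to 0.00416 for other pairs), so the number was also fitted as a block. Deviations within a group sum to 0, so these values are not independent. The other alternatives were an offset of 1, quantile normalization, centring on medians, a filter on the dimmest 30% of genes, averaged probe sets, an intensity trend with robust moderation, each array left out, and both arrays numbered 1 left out.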

Additional observations from a re-analysis of the deposited data

How the results depend on the processing

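The log2 differences of Mt1, Mt2 and Mt3 moved by at most 0.27, 0.28 and 0.37 under the alternatives run for them, less than the pooled SD of log2 values within groups (0.51, 0.49 and 0.45). For Mt3 that move exceeded the log2 range of 0.30 among its RFP+ arrays. With each array left out in turn they lay between 2.53 and 3.07 for Mt1, 3.64 and 4.12 for Mt2, and 2.85 and 3.44 for Mt3, and an offset of 1 gave 2.86, 4.1 and 3.26. Each member has 1 probe set, so averaging probe sets left its value as reported. No alternative reversed the sign of a member's difference, or of a called gene named from the lists or the neighbours. Herpud1, which was not called, went from -0.06 to 0.04 without GFP+ array 3. The balance of copper genes did change, from 2 higher and 1 lower in the fit above. The counts were 0 and 1 with an offset of 1 or without RFP+ array 1 or 3, and 0 and 2 without GFP+ array 2. The counts of list genes are small and moved more, and the causes were not tested. With the replicate block 7 zinc transporter, 5 copper, 10 glutathione and 6 heat shock genes passed, and this pairing moved no other list count by over 1.5 times and ended the call of no gene named from the lists or the neighbours. An intensity trend with robust moderation gave 5 copper, 10 glutathione and 4 heat shock genes. Copper genes numbered 1 with an offset of 1 and 5 without the dimmest 30% of genes. Without both arrays numbered 1, which leaves 2 arrays per group, 2 zinc transporter, 5 regulator and 5 glucocorticoid target genes passed, and 1848 of all genes were lower in the GFP+ arrays. With each array left out, passing genes ranged from 1 to 4 for copper (1 without RFP+ array 1 or 3), 5 to 8 for glucocorticoid targets (5 without RFP+ array 1 or 2), 1 to 3 for heat shock (1 without GFP+ array 3 or RFP+ array 2), 5 to 7 for regulators (5 without GFP+ array 1), 3 to 4 for zinc and iron, and 5 to 7 for glutathione. Of all genes 2206 to 2547 were higher and 2300 to 3046 lower. The near-background level limits Mt2 in RFP+ neurons, whose value is a bound.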
